A study of Macaca mulatta with 8 samples.

Results

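Retinal cells taken from areas under a subretinal bleb of AAV8-GRK1-mScarlet were compared with cells from areas under a bleb of AAV8-GRK1-hRPGR in the same animal, with most attention to cones, bipolar cells, Müller glia, myeloid cells and T cells. The comparison held the 4 libraries whose titles name 1 of these vectors, 2 per vector, among 8 libraries in the series, and the 2 libraries of the other animal, both labelled uninjected, were not used. In them 43583 barcodes had at least 1500 UMIs and 300 genes, of 91803 such barcodes in the whole series. All 4 came from 1 male macaque of 6 years, called NHP2, and for each vector replicate 1 came from the right and replicate 2 from the left eye. A further 22322 barcodes came from uninjected areas of both eyes of NHP2 and served as a background. In the right uninjected area 19.4% of the rods held UMIs of the hRPGR transgene, so this background was not free of it. A bleb is the patch of retina that a subretinal injection lifts off the pigment epithelium. By the study's methods every eye received subtenon triamcinolone, a steroid, and the left eyes also received intravitreal adalimumab, an antibody against TNF. The GRK1 promoter is active in rods and cones, mScarlet is a red fluorescent reporter protein, and hRPGR is a codon-optimised human RPGR counted here as the feature coRPGR. The mScarlet vector was of research grade and was given at a lower dose than the hRPGR vector, which was of engineering grade. By the study's text the vectors were placed in distinct quadrants of the retina. Transgene, dose, grade and retinal position therefore cannot be told apart. With 1 animal, the error between libraries is a difference between eyes and not between animals, and the eyes also differed in adalimumab.

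The cells sorted here play different parts in the retina. Cones turn light into a fall in glutamate release, bipolar cells carry that signal inward, and Müller glia span the retina and clear glutamate and potassium. Myeloid cells comprise resident microglia and entering monocytes or macrophages, and T cells are scarce in healthy retina. Interferons are proteins that cells release on sensing virus or, in the case of interferon-gamma, that T cells and natural killer cells release. Through JAK kinases and IRF1 they raise genes that present antigen, such as MHC class I and the immunoproteasome subunits PSMB8 and PSMB9, and genes that act against virus, such as the guanylate-binding proteins. Neurons normally hold very little MHC class I.

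Library totals ran from 90634306 to 121711812 UMIs over the 4 bleb libraries, and the barcodes kept had medians of 5293 to 5889.5 UMIs. After the cells with the highest doublet scores were taken out, 39740 cells remained, and 8975 of them fell into 1 of the 5 classes by marker genes. The classes held 837 cone-like, 3146 bipolar-like, 3102 Müller glia-like, 1104 myeloid-like and 786 T cell-like cells. Among the 10 genes that led each class over the others, 7 were fixed markers of cones, 3 of bipolar cells, 3 of Müller glia, 5 of myeloid cells and 3 of T cells, and none belonged to another class. Cells were placed by these same markers, so the counts describe the gates and are no separate check of the classes. The pairs of libraries shared 135 to 226 cell barcodes, against 131.3 to 207.2 given by their numbers alone. Levels of genes below are CPM, which scale the UMIs of a gene by the UMIs summed over the tested genes of a class in 1 library and by edgeR's TMM factor. CPM of transgenes, RPGR, GRK1, class markers and free RNA, and the summed CPM of gene lists, have no TMM factor and use all UMIs of the sum, without those of transgenes for the gene lists. Values are written with the right eye first and the left eye second. Differences are on the log2 scale, mScarlet minus hRPGR, from edgeR's quasi-likelihood test, with n = 2 libraries per group throughout, and a gene was called at a Benjamini-Hochberg adjusted p under 0.05.

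In cone-like cells the transgenes separated the blebs as labelled, with 1 exception. Cone-like cells held mScarlet at 373 and 465 CPM in mScarlet blebs, where 85.6% and 92.4% of them had at least 1 mScarlet UMI, and 1 mScarlet UMI in all was counted in cones of the hRPGR blebs. They held coRPGR at 11275 and 353 CPM in hRPGR blebs, where 100% and 65.0% of the cones had a UMI. The right hRPGR bleb thus held far more coRPGR than the left. In rods coRPGR was at 3712 and 1373 CPM in hRPGR blebs, with a UMI in 98.6% and 72.8% of them. Rod clusters 6, 11 and 14 held 53, 199 and 138 cells of the right hRPGR bleb and 941, 1378 and 1246 of the left. They held 2422, 1177 and 1733 of the right uninjected area. Rod clusters 3 and 12 ran the other way, at 2139 and 1095 against 575 and 289. Whether the left hRPGR library held cells from outside its bleb was not tested. The exception was the right mScarlet bleb, where 45 of 291 cones (15.5%) held 176 coRPGR UMIs, while the left mScarlet bleb held 0 UMIs in 119 cones, which allows a level of up to 1.08 CPM. In the other 4 classes coRPGR stood at 403 to 509 CPM in the right hRPGR bleb and 71.9 to 147 CPM in the left. Free RNA, measured in barcodes of 100 to 1000 UMIs, held 3482 and 2251 CPM of it, above the level of those classes in each hRPGR bleb and also above that of the left cones. Bipolar-like cells had a coRPGR UMI in 81.8% and 42.8% of cells, at a median depth of 7595 and 7578, against 17485 and 20375 UMIs in cones, so the share of left cones with a UMI cannot be read as expression apart from free RNA. Native RPGR in cones was at 63.9 and 76.1 CPM in mScarlet blebs and 70.9 and 61.9 CPM in hRPGR blebs, and these values overlapped. GRK1, the gene whose promoter drove both vectors, was at 141 and 132 CPM against 127 and 112 CPM.

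Immune cells made up a larger share of the mScarlet blebs in both eyes. T cell-like cells were 2.65% (234 of 8832, 2.32 to 3.01%) of the cells in the right mScarlet bleb and 4.11% (421 of 10254, 3.73 to 4.51%) in the left, where brackets give counts and exact Clopper-Pearson 95% intervals for counting error only. In the hRPGR blebs they were 0.872% (99 of 11353, 0.709 to 1.06%) and 0.344% (32 of 9301, 0.235 to 0.485%). The means were 3.38% ± 1.03 and 0.608% ± 0.373 (SD, n = 2), and the uninjected areas held 0.269% ± 0.0339 (SD, n = 2). Myeloid-like cells were 4.60% (406 of 8832, 4.17 to 5.05%) and 3.44% (353 of 10254, 3.10 to 3.81%) in mScarlet blebs. In the hRPGR blebs they were 2.16% (245 of 11353, 1.90 to 2.44%) and 1.08% (100 of 9301, 0.876 to 1.31%), and the uninjected areas held 0.566% ± 0.0883 (SD, n = 2). For both classes each mScarlet bleb lay above each hRPGR bleb, and each hRPGR bleb above each uninjected area, although for T cells the interval of the left hRPGR bleb took in both uninjected values. A two-sided exact permutation test of 2 libraries against 2 has 6 arrangements and cannot give a p under 0.333, which is the p both classes reached. When classes came from clusters the myeloid shares were 6.11% and 4.76% in mScarlet blebs and 4.14% and 1.77% in hRPGR blebs. The right hRPGR bleb then came closer to the left mScarlet bleb.

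Shares of the neuronal and glial classes moved differently in each eye. Bipolar-like cells were 8.83% and 10.2% of the cells in mScarlet blebs and 4.17% and 9.06% in hRPGR blebs, so the gap was 4.67 percentage points (right eye) and 1.18 (left eye), with overlapping groups (exact permutation p = 0.667). Cone-like cells were 2.23% ± 1.51 in mScarlet blebs, 2.05% ± 0.211 in hRPGR blebs and 3.57% ± 0.187 in uninjected areas (SD, n = 2). The left mScarlet bleb held the lowest cone share, 1.16% (119 of 10254, 0.962 to 1.39%), and the right mScarlet bleb the highest of the 4, 3.29% (291 of 8832, 2.93 to 3.69%). The study's imaging showed atrophy of the pigment epithelium and outer retina within the left mScarlet bleb, and its part in this share was not tested. Müller glia-like cells were 7.51% ± 0.972 against 8.21% ± 2.66 (SD, n = 2). For cones and Müller glia the exact permutation p was 1, and the sign of the difference was opposite in the 2 eyes. A share depends on how well each cell type survived the digestion of the punch and on the other types in the denominator.

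**Figure D1:**
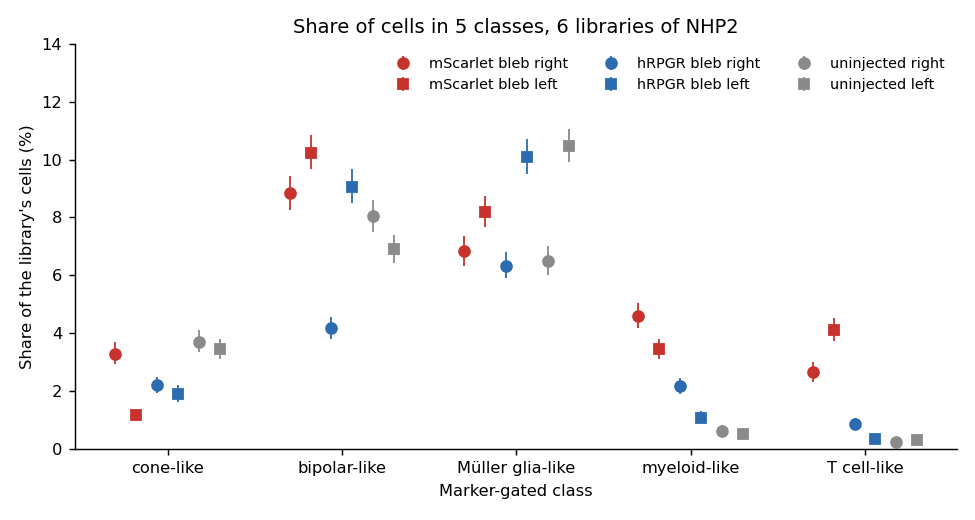
Share of cells (%, vertical axis) in each of the 5 classes for the 6 libraries of NHP2, with exact 95% intervals for counting error as bars; circles are right eyes and squares left eyes, and colours mark the mScarlet bleb, the hRPGR bleb and the uninjected area. Both mScarlet blebs sit above both hRPGR blebs for myeloid cells (4.60% and 3.44% against 2.16% and 1.08%) and T cells (2.65% and 4.11% against 0.872% and 0.344%), while the cone and Müller glia points of the blebs overlap.

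Cones of the mScarlet blebs held more RNA of genes that process and present antigen on MHC class I. Of 11337 genes tested, 25 were called (0.221%), 21 higher in mScarlet blebs (0.185%) and 4 lower (0.0353%), and each called gene differed in the same direction in both eyes. PSMB8, an immunoproteasome subunit (chr4:136681298-136685276, plus strand), was at 147 and 172 CPM in mScarlet blebs, 27.0 and 17.2 CPM in hRPGR blebs and 8.37 and 5.48 CPM in uninjected areas, a bleb difference of 2.83 (SE 0.21, adjusted p = 0.0012). PSMB9, its neighbour in the MHC region and also an immunoproteasome subunit (chr4:136666685-136673727, minus strand), was at 91.0 and 105 against 8.92 and 5.46 CPM, and rose by 3.74 (SE 0.35, adjusted p = 0.00422). NLRC5, the transactivator of MHC class I genes (chr20:44236656-44329987, plus strand), was at 90.2 and 84.6 against 15.4 and 6.90 CPM and rose by 2.95 (SE 0.25, adjusted p = 0.00249). Both mScarlet values of these genes lay above both hRPGR values, and the hRPGR values lay above those of the uninjected areas. With the eye as a replicate block 12 of the 25 genes were called and no others, and 13 of the 25 were called when classes came from clusters. Libraries were also left out 1 at a time, among them the right mScarlet library, whose cones held coRPGR UMIs. The difference then ran from 2.56 to 3.20 for PSMB8, from 3.45 to 4.15 for PSMB9 and from 2.51 to 3.66 for NLRC5. The number of genes called depended strongly on the library left out.

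MHC class I genes were higher too. MAMU-A, a classical class I heavy chain, was at 241 and 262 CPM in mScarlet blebs, 55.5 and 17.0 CPM in hRPGR blebs and 4.27 and 6.49 CPM in uninjected areas, a difference of 2.77 (SE 0.37, adjusted p = 0.03). AG, a class I gene named by the supplied gene table, was at 34.3 and 33.2 against 4.71 and 2.59 CPM (difference 3.18, SE 0.27, adjusted p = 0.00249). Of the called genes outside the naming rule, and so chosen after their values were seen, Mamu-B was at 418 and 446 against 72.9 and 17.2 CPM (difference 3.24, SE 0.45, adjusted p = 0.0317). Class I genes of the macaque are many near-identical copies, so how UMIs were divided among MAMU-A, Mamu-B and AG is uncertain. In the left hRPGR bleb MAMU-A and Mamu-B were lower than in the right, as was the coRPGR level. Of the list of MHC class I and loading genes, 17 of 23 were in the files and 15 were tested in cones. Of these 4 were called higher (PSMB8, PSMB9, NLRC5 and MAMU-A), where 0.185% of all genes were, none was called lower, where 0.0353% were, and the median difference was 0.93, against -0.00045 over all genes. In 10 of the 15 both mScarlet values exceeded both hRPGR values, which was so for 20.1% of all genes tested, and in 2 both were below, which was so for 20% of all genes.

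Interferon-response genes were higher in the same cones. Of this list 59 of 68 members were in the files and 32 were tested in cones. Of the 32, 4 were called higher, where 0.185% of all genes were, none was called lower, 29 had a positive difference and the median was 1.08, against -0.00045 over all genes. Both mScarlet values exceeded both hRPGR values in 24 of the 32, where 20.1% of all genes did so. The median was 0.49 (right eye) and 1.79 (left eye), and 2.33 without the right hRPGR library and 0.64 without the left. IRF1, the transcription factor that carries interferon-gamma signals to class I genes, was at 32.0 and 49.8 against 8.43 and 7.47 CPM, a rise of 2.33 (SE 0.32, adjusted p = 0.0307). EPSTI1, an interferon-inducible gene, was at 84.4 and 69.4 against 9.42 and 4.31 CPM (difference 3.46, SE 0.36, adjusted p = 0.00576). PARP14, a mono-ADP-ribosyltransferase, was at 15 and 16.6 against 1.98 and 0.287 CPM (difference 3.70, SE 0.56, adjusted p = 0.0469), on 8 and 1 UMIs in hRPGR blebs, and was at 3.76 and 1.83 CPM in uninjected areas. Its difference was 5.64 without the right hRPGR library and 2.97 without the left. The tryptophanyl-tRNA synthetase WARS1 differed less, at 50.1 and 56.5 against 29.0 and 28.4 CPM (difference 0.88, SE 0.13, adjusted p = 0.0448). The summed CPM of the list was 1647 and 1436 in mScarlet blebs, 1131 and 508 in hRPGR blebs and 1019.8 and 398 in uninjected areas. Within each of the 3 groups the right eye, which had no adalimumab, had the higher sum. Adalimumab and any other difference between the eyes cannot be told apart.

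Other called genes of cones were on none of the lists. MGST1, a membrane glutathione transferase that detoxifies lipid peroxides, was at 107 and 131 CPM in mScarlet blebs, 31.2 and 32.8 CPM in hRPGR blebs and 40.7 and 36.5 CPM in uninjected areas, a difference of 1.89 (SE 0.14, adjusted p = 0.0012). BTN2A2, a butyrophilin of the immunoglobulin family, was at 91.5 and 101 against 40.9 and 38.2 CPM and rose by 1.28 (SE 0.13, adjusted p = 0.00576). KCNQ3, a subunit of slow potassium channels, had uninjected values near those of the mScarlet blebs. It was at 177 and 179 CPM in mScarlet blebs, 91.0 and 89.9 CPM in hRPGR blebs and 187 and 189 CPM in uninjected areas (difference 0.97, SE 0.10, adjusted p = 0.00576). A pair of features with no symbol in the files or the supplied table were also named by the rule. ENSMMUG00000064120 was at 56.7 and 60.9 CPM in mScarlet blebs and 7.19 and 6.03 CPM in hRPGR blebs, with 1 UMI in uninjected areas (difference 3.14, SE 0.19, adjusted p = 0.000735). The study's text takes it for an ortholog of CD1D, which presents lipid antigens. ENSMMUG00000064054 was at 16.0 and 17.9 CPM in mScarlet blebs and had 2 and 0 UMIs in hRPGR blebs (adjusted p = 0.0131). The remaining called genes were chosen after their values were seen and comprised THSD7B at 36.3 and 30.1 against 14.1 and 11.8 CPM, STK39 at 83.1 and 79.6 against 40.7 and 40.5 CPM and 4 more features without a symbol, of which the study's text links some to the MHC class I pathway.

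All 4 genes called lower in mScarlet cones were of other kinds. ERBB4, a receptor for neuregulins (chr12:98688163-99874927, minus strand), was at 16.5 and 12.5 CPM in mScarlet blebs and 69.9 and 59.8 CPM in hRPGR blebs, a difference of -2.12 (SE 0.21, adjusted p = 0.00576). The uninjected areas held 8.54 and 4.87 CPM, so the hRPGR blebs were the highest of the 3 groups. ROBO1, the receptor for Slit guidance cues, was at 8.74 and 5.42 against 52.8 and 57.8 CPM (difference -2.88, SE 0.31, adjusted p = 0.00729), and here the uninjected areas, at 35.4 and 61.5 CPM, were near the hRPGR blebs. The kinase gene SBK1 was at 40.7 and 28.8 against 142 and 127 CPM (difference -1.92, SE 0.25, adjusted p = 0.0268). The phospholipase gene PLCD4 was at 98.1 and 107 against 176 and 202 CPM (difference -0.88, SE 0.13, adjusted p = 0.0334) and at 196 and 225 CPM in uninjected areas. Below the threshold, ESR1, the oestrogen receptor, was at 21.6 and 16.6 against 67.4 and 55.2 CPM (difference -1.65, SE 0.26, adjusted p = 0.0627).

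**Figure D2:**
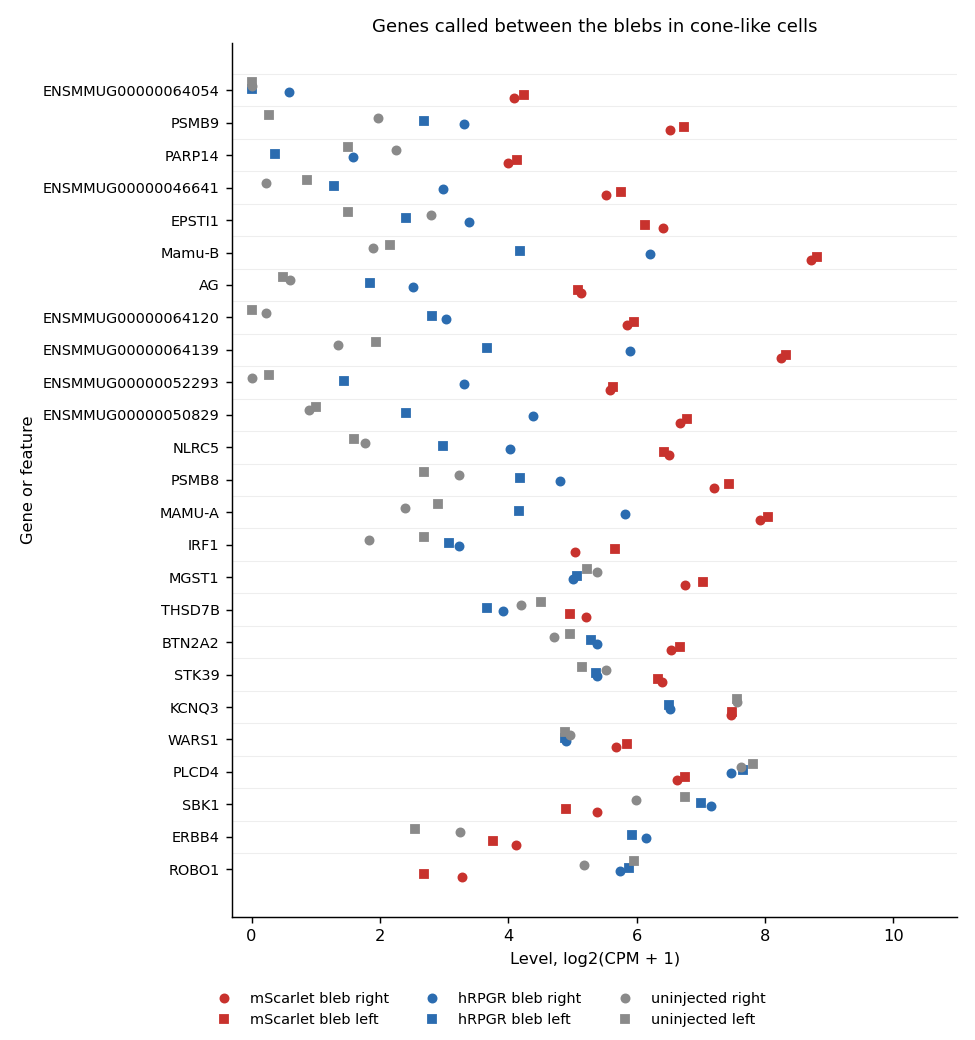
Levels of the genes called in cone-like cells, as log2(CPM + 1) on the horizontal axis, 1 row per gene or feature, in the 6 libraries of NHP2 (circles right eyes, squares left eyes, colours the 3 groups). For PSMB8 the mScarlet points stand at 147 and 172 CPM, the hRPGR points at 27.0 and 17.2 CPM and the uninjected points at 8.37 and 5.48 CPM, whereas for KCNQ3 the hRPGR points alone are low.

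No gene of the lists for the cones' own work was called. Of the cone phototransduction list 22 members were tested in cones, none was called, and the median difference was -0.04. The cone gate's own markers include phototransduction genes, so the gate partly sets their levels and this list cannot test them freely. Of 29 genes for the cone outer segment and synapse none was called, 7 were positive, 22 were negative and the median was -0.08. RP1, a microtubule protein of the outer segment, was at 1799.8 and 1718 against 1366 and 1193 CPM (difference 0.46, SE 0.10, adjusted p = 0.216). Of 19 cell death genes none was called and the median was -0.01. MCL1, which restrains apoptosis, was at 65.3 and 59.6 against 49.6 and 49.7 CPM (difference 0.34, SE 0.12, adjusted p = 0.473). Counts of 0 calls in these lists come from edgeR at the threshold over all genes, of which 0.221% were called. They do not show that the genes were alike.

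Markers of other cells were counted in the cone sums. The 27 myeloid markers in the files summed to 72.9 and 45.4 CPM in cones of the mScarlet blebs and 48.9 and 34.5 CPM in those of the hRPGR blebs, and C1QA was at 0 in the left mScarlet bleb. The 19 T cell markers summed to 89.6 and 98.1 against 82.2 and 78.5 CPM, CD2 was at 0 in all 6 libraries and CD3D and CD3G at 0 in 5. The 15 Müller glia markers summed to 198 and 120 against 392 and 136 CPM. Rod transcripts, the most abundant of these, summed to 865 and 225 against 1272 and 617 CPM. Free RNA held PSMB8 at 52.8 and 91.5 CPM in mScarlet blebs and 67.0 and 14.6 CPM in hRPGR blebs, and MAMU-A at 154 and 304 CPM in mScarlet blebs and 304 and 54.0 CPM in hRPGR blebs. In mScarlet blebs PSMB8 was thus higher in cones than in free RNA in both eyes, while MAMU-A was higher in cones on the right and higher in free RNA on the left. With the free-RNA profile subtracted, 29 genes were called, among them all 25. Median depth was 22141 and 23932 UMIs a cell in mScarlet blebs and 17485 and 20375 in hRPGR blebs. The part of these markers and of depth in the differences was not tested.

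The sequence ahead of these genes was read for the letters that interferon-driven factors are known to bind. RefSeq's Mmul_10 annotation gave 250 bases before the gene start for 12 of the 21 genes called higher in cones, the 4 called lower and the 10 called in bipolar-like cells described below. GAAANNGAA, the core of sites for IRF factors, and TTCNNNGAA, the core of gamma-activated sites, were searched on both strands. Of 20782 protein-coding windows 6.88% held the first, 5.98% the second and 12.3% either. Among the genes called higher, a match stood in 3 of the 12 cone windows (BTN2A2, EPSTI1 and PARP14) and in 4 of the 10 bipolar windows (BST2, BTN2A2, CD274 and PARP14), and in 1 of the 4 windows of genes called lower (PLCD4). PSMB8, PSMB9, NLRC5, IRF1 and GBP3 had no match in this window, which says only that these letters are not in it.

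A set of 4 windows is printed from the called genes that hold a match, with matches in capitals and the strand of the gene, minus for all 4. EPSTI1, PARP14 and BST2 are on the interferon-response list, and CD274 is on none of the lists. The windows of BTN2A2 and PLCD4, which also hold a match, are not printed. EPSTI1 lies at chr17:21337435-21563681, PARP14 at chr2:153587993-153638739, BST2 at chr19:16904963-16907635 and CD274 at chr15:78309994-78330073, and the windows are chr17:21563682-21563931, chr2:153638740-153638989, chr19:16907636-16907885 and chr15:78330074-78330323 in the same order.
EPSTI1: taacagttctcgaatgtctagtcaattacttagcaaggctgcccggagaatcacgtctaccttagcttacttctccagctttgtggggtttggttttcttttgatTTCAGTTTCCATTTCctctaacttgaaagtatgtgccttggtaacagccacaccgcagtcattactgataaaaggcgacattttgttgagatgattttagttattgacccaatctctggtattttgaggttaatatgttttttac
PARP14: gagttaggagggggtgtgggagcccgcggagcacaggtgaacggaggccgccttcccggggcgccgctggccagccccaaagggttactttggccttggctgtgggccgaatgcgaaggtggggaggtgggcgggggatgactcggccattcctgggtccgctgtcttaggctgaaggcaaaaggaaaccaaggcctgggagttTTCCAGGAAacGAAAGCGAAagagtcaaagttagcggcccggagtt
BST2: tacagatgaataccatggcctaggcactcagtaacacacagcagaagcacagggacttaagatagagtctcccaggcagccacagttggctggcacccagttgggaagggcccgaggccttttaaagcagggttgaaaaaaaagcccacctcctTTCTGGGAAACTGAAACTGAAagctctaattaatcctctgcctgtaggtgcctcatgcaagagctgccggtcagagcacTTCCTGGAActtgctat
CD274: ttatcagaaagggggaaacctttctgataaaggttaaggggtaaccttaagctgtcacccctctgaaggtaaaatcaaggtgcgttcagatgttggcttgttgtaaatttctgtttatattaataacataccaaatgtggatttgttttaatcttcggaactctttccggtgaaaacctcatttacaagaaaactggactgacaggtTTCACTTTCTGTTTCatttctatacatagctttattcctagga
In EPSTI1 and CD274 the capitals are a pair of overlapping GAAANNGAA matches read on the opposite strand, in PARP14 a TTCNNNGAA match is followed by a GAAANNGAA match, and in BST2 a TTCNNNGAA match overlaps a pair of GAAANNGAA matches, with a further TTCNNNGAA match near the gene start. A match is a description of letters and not a measured binding site.

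Bipolar cells, which lie outside the photoreceptors that the GRK1 promoter serves, showed a related set of genes. Of 12953 genes tested 10 were called (0.0772%), all of them higher in mScarlet blebs (0.0772%) and none lower (0%). GBP3, a guanylate-binding protein (chr1:135415353-135430762, plus strand), had the lowest p. It was at 180.3 and 229 CPM in mScarlet blebs, 20.3 and 28.9 CPM in hRPGR blebs and 6.12 and 5.07 CPM in uninjected areas, a rise of 3.03 (SE 0.18, adjusted p = 0.000268). BST2, the tetherin that holds budding virus at the membrane, was at 37.6 and 64.7 against 6.40 and 4.25 CPM (difference 3.33, SE 0.35, adjusted p = 0.0171). PSMB8 was at 144 and 179.6 against 45.3 and 37.4 CPM (difference 1.98, SE 0.22, adjusted p = 0.0171). For each of these genes the order was mScarlet blebs, hRPGR blebs, uninjected areas, with no overlap. With the eye as a replicate block 5 of the 10 remained called, and with the doublet-scored cells kept 1 did. Without the right or the left mScarlet library 2 and 1 were called, without an hRPGR library (right, then left) 30 and 16, and without 1 uninjected library 30 or 29.

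The other called genes of bipolar cells were of several kinds. CD274, which encodes PD-L1, the ligand that restrains T cells, was at 20.5 and 30.4 against 4.26 and 6.14 CPM (difference 2.25, SE 0.27, adjusted p = 0.0263). UBE2L6, the conjugating enzyme for ISG15, was at 15.6 and 19.9 against 5.33 and 4.09 CPM (difference 1.95, SE 0.26, adjusted p = 0.0425). BTN2A2 was at 288 and 292 against 123 and 92.5 CPM (difference 1.44, SE 0.16, adjusted p = 0.0171). IRF1 at 49.5 and 56.5 against 22.4 and 15.6 CPM (difference 1.52, SE 0.20, adjusted p = 0.0425) and PARP14 at 44.7 and 47.4 against 23.7 and 19.2 CPM (difference 1.12, SE 0.15, adjusted p = 0.0425) were called in both cones and bipolar cells, as were BTN2A2 and PSMB8. These 4 genes are 16% of the cone calls and 40% of the bipolar calls. The other calls were ARHGAP28, a GTPase-activating protein, at 102 and 105 against 50.9 and 57.6 CPM (difference 0.93, SE 0.10, adjusted p = 0.0177), and TRPM3, a cation channel, at 55.1 and 46.8 against 27.2 and 23.0 CPM (difference 1.03, SE 0.14, adjusted p = 0.0471).

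Of the interferon-response list 47 members were tested in bipolar cells. Of these 4 were called higher, where 0.0772% of all genes were, none was called lower, 45 were positive, and the median was 0.95, against 0.00087 over all genes. The median was 0.50 (right eye) and 1.64 (left eye), and it was 1.80 without the right hRPGR library and 0.23 without the left. In 25 of the 47 both mScarlet values exceeded both hRPGR values and in none were both below, where these shares over all genes were 18.3% and 16.6%. Their summed CPM was 4074 and 3132 in mScarlet blebs and 3908 and 1081 in hRPGR blebs, with 3409 and 819 in uninjected areas, so the right hRPGR bleb and the right uninjected area both lay between the mScarlet blebs. Of 16 MHC class I and loading genes 1 was called higher (PSMB8), where 0.0772% of all genes were, and the median was 0.70. Both mScarlet values exceeded both hRPGR values in 13 of the 16. PSMB9 was at 101 and 145 against 34.6 and 27.7 CPM (difference 2.0, SE 0.31, adjusted p = 0.0678) and NLRC5 at 91.8 and 113 against 36.0 and 21.9 CPM (difference 1.87, SE 0.29, adjusted p = 0.0678), both short of the threshold.

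GBP3 set cones apart from bipolar cells in these levels. In cones of the mScarlet blebs it was at 3.96 and 3.39 CPM and in bipolar cells at 180.3 and 229 CPM, while PSMB8 was at 147 and 172 CPM in cones and 144 and 179.6 CPM in bipolar cells. This contrast between classes was chosen after the values were seen and was not tested. GBP3 in free RNA was at 15.6 and 35.7 CPM in mScarlet blebs and 9.06 and 3.98 CPM in hRPGR blebs, below the bipolar level in each library. The signalling cascade of ON bipolar cells showed no called gene among 18 tested, with 8 positive and a median of -0.08. The glutamate and GABA receptors of bipolar cells showed none among 18, with a median of 0.11. Of all genes tested 0.0772% were called, so these counts of 0 do not show that the genes were alike. The bipolar gate's markers include glutamate receptors and genes of this cascade, so the gate partly sets their levels. GNB5, a G protein subunit of that cascade, was at 208 and 195 against 254 and 212 CPM (difference -0.20, SE 0.11, adjusted p = 0.978). PDE10A, a phosphodiesterase with no call, had one of the larger lower values, at 162 and 115 against 259 and 411 CPM (difference -1.28, SE 0.26, adjusted p = 0.176), and was at 318 and 493 CPM in uninjected areas.

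Markers of other classes were also counted in the bipolar sums. Myeloid markers summed to 64.8 and 78.6 CPM in mScarlet blebs and 68.4 and 48.2 CPM in hRPGR blebs, and T cell markers to 45.8 and 56.9 against 49.1 and 40.4 CPM. Rod transcripts summed to 1093 and 926 against 2448 and 958 CPM, with the right hRPGR bleb highest, and Müller glia markers to 344 and 369 against 406 and 383 CPM. The part of these markers in the differences was not tested. With the free-RNA profile subtracted 10 genes were called, the same 10.

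**Figure D3:**
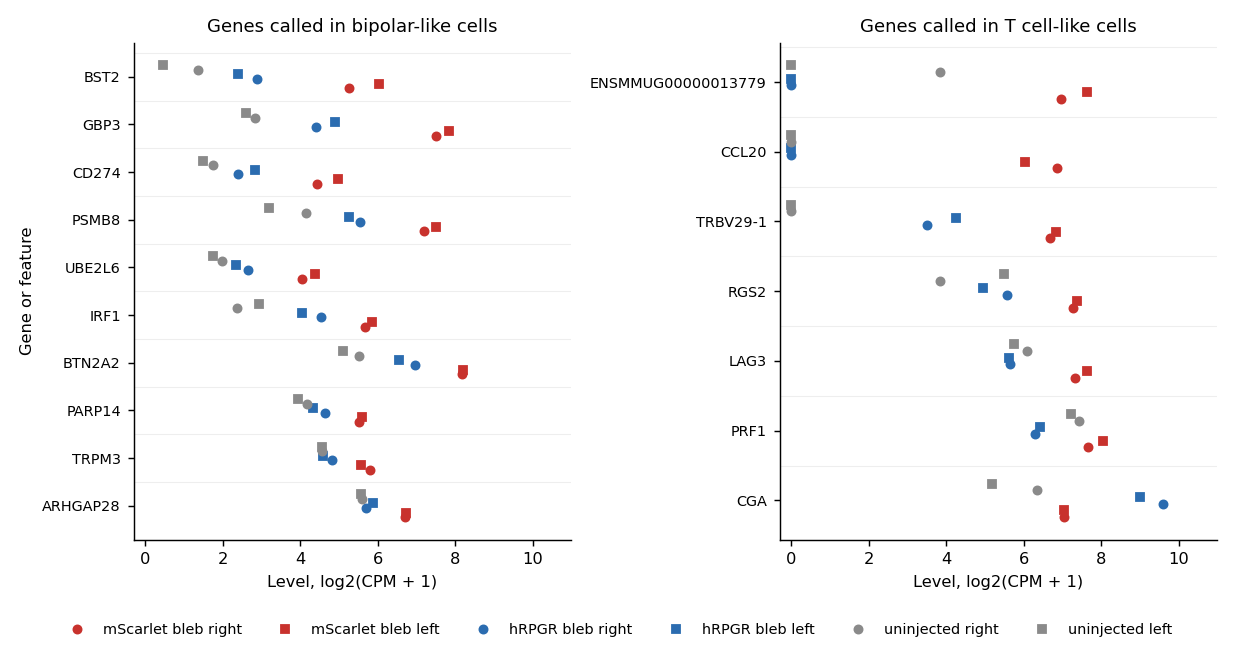
Levels of the genes called in bipolar-like cells (left panel) and in T cell-like cells (right panel), as log2(CPM + 1), 1 row per gene or feature, in the 6 libraries of NHP2 (circles right eyes, squares left eyes, colours the 3 groups). In the left panel both mScarlet points of each gene lie right of both hRPGR points, for GBP3 at 180.3 and 229 against 20.3 and 28.9 CPM, and in the right panel CGA is the 1 gene with the hRPGR points at the right, at 779 and 513 CPM.

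Müller glia showed large differences in a few genes and no call. Of 12864 genes tested edgeR called 0 (0%), with 1375 at an unadjusted p under 0.05, and DESeq2 on the same sums called 157. The eye as a replicate block gave 1 call, and a fit without the right uninjected library gave 41 and without the left 42. The gene with the lowest adjusted p among the interferon genes was CXCL10, the chemokine that draws CXCR3-bearing T cells (chr5:57698478-57699998, plus strand). It was at 887 and 699 CPM in mScarlet blebs, 155 and 146 CPM in hRPGR blebs and 0.493 and 0.842 CPM in uninjected areas, a difference of 2.40 (SE 0.17, adjusted p = 0.0557). The cells with a CXCL10 UMI were 64 of 603 and 129 of 841 in mScarlet blebs (10.6% and 15.3%) and 43 of 719 and 35 of 939 in hRPGR blebs (5.98% and 3.73%). Single cells held up to 657 of the 4550 UMIs in the right mScarlet bleb and 560 of 3601 in the left. In free RNA CXCL10 was at 14.9 and 82.0 CPM in mScarlet blebs and 10.7 and 13.5 CPM in hRPGR blebs.

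Other genes of the interferon-gamma type ran the same way, below the threshold. GBP3 was at 154 and 236 against 54.4 and 39.5 CPM (difference 2.05, SE 0.31, adjusted p = 0.273), IRF1 at 92.8 and 154 against 41.3 and 42.7 CPM (difference 1.55, SE 0.25, adjusted p = 0.273) and the kinase gene JAK2 at 81.6 and 75.0 against 50.4 and 43.9 CPM (difference 0.73, SE 0.12, adjusted p = 0.273). CXCL11, another ligand of CXCR3, was at 32.9 and 41.4 against 7.08 and 0.599 CPM (difference 3.27, SE 0.73, adjusted p = 0.287). UBD, a ubiquitin-like protein, was at 31.4 and 73.2 against 10.7 and 3.39 CPM. Of 19 JAK-STAT and IRF genes 18 were positive, with a median of 0.43 and 0 calls, and in 12 of them both mScarlet values exceeded both hRPGR values, against 24.2% of all genes. MAMU-A was at 1507 and 1844 against 659 and 542 CPM (difference 1.48, SE 0.61, adjusted p = 0.467).

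Over the wider interferon list the blebs overlapped in Müller glia. Of 57 members tested none was called, 32 were positive, the median was 0.07, and the median was -0.37 (right eye) and 1.16 (left eye). Both mScarlet values exceeded both hRPGR values in 12 of the 57, where 24.2% of all genes did so, and both were below in 1, where 22.5% of all genes were. The summed CPM was 17728 and 13532 in mScarlet blebs, 30378 and 5678 in hRPGR blebs and 31647 and 3267 in uninjected areas. The right hRPGR bleb and the right uninjected area were highest. A set of 4 abundant members, chosen after their values were seen, had this pattern. IFI6 was at 7794 and 6428 CPM in mScarlet blebs, 16666 and 3117 CPM in hRPGR blebs and 17769 and 2000.2 CPM in uninjected areas. The antiviral GTPase gene MX1 was at 1055 and 484, 3216 and 156 and 3513 and 32.2 CPM in the same order. ISG15 was at 761 and 385, 1779 and 198 and 1912 and 108 CPM and IFIT1 at 989 and 637, 1807 and 378 and 2066 and 176 CPM. CXCL10, at under 1 CPM in both uninjected areas, did not share that order.

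The Müller cells of the libraries fell into different clusters, and each Müller value above and below is a sum over such a mix. Clusters were made from the same counts with no batch integration, so they are no separate measure of the cells. Clusters 22 and 55 held 63.7% of the Müller glia-like cells of the left hRPGR bleb and 93.0% of those of the left uninjected area, but only 0.829% and 1.31% in mScarlet blebs, 0.974% in the right hRPGR bleb and 0.491% in the right uninjected area. Clusters 15, 23, 27, 28 and 38 held nearly all the rest. Within the left hRPGR bleb the first set had the interferon list at 4042 CPM and CXCL10 at 2.24 CPM, and the second set at 8220 and 360 CPM. Over the second set alone the interferon sums were 17755 and 13580 CPM in mScarlet blebs and 30541 and 8220 CPM in hRPGR blebs. CXCL10 in that set was at 941 and 723 against 155 and 360 CPM, so its gap in the left eye was smaller than over all Müller glia-like cells. In the left hRPGR bleb the second set alone held SERPINA3 at 32.8 CPM and DKK1 at 19.9 CPM, against 13.4 and 101 CPM over all its Müller glia-like cells. When classes came from clusters 3 genes were called. The part of cluster make-up in the differences was not tested further. Myeloid markers in the Müller sums were 1181 and 1132 CPM in mScarlet blebs and 786 and 835 CPM in hRPGR blebs. Rod markers there were at 1096 and 1238 against 3063 and 1489 CPM. All 10 rod transcripts tested were lower in both mScarlet blebs than in both hRPGR blebs, where 22.5% of all genes were so. The part of both was not tested.

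Among genes of glial reaction, SERPINA3, an acute-phase protease inhibitor of reactive glia, was at 72.7 and 88.4 CPM in mScarlet blebs, 10.7 and 13.4 CPM in hRPGR blebs and 0 and 0.842 CPM in uninjected areas (difference 2.74, SE 0.29, adjusted p = 0.156). It rested on few cells, 17 and 59 in mScarlet blebs and 8 and 7 in hRPGR blebs, and 1 cell held 208 of the 373 UMIs of the right mScarlet bleb. Of 29 reactive gliosis genes 22 were positive, none was called and the median was 0.43. The endothelin receptor gene EDNRB was at 156 and 153 against 74.3 and 88.6 CPM (difference 0.93, SE 0.25, adjusted p = 0.318). NPVF, which encodes RFamide-related peptides, was at 238 and 327 against 47.8 and 62.1 CPM (difference 2.36, SE 0.22, adjusted p = 0.0957), and BAALC, a membrane-associated protein, at 70.2 and 33.4 against 2.02 and 11.8 CPM.

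Several genes were low in Müller glia of both mScarlet blebs. PLA2R1, the M-type phospholipase A2 receptor, was at 83.0 and 64.9 CPM in mScarlet blebs, 329 and 414 CPM in hRPGR blebs and 251 and 91.3 CPM in uninjected areas, so the mScarlet values were below those of the other 4 libraries. The chemokine gene CXCL14 was at 1.56 and 4.66 against 38.1 and 29.7 CPM (difference -3.44, SE 0.76, adjusted p = 0.283). DKK1, an inhibitor of Wnt signals, was at 6.82 and 0.583 against 235 and 101 CPM (difference -5.50, SE 1.79, adjusted p = 0.389), but its uninjected values, 4.19 and 241 CPM, spanned the same range. COL2A1 at 2.92 and 7.96 against 117 and 98.2 CPM and STAC2 at 13.8 and 17.7 against 113 and 101 CPM did likewise, with the right uninjected area low and the left high. Of 29 Müller homeostasis genes none was called and the median was 0.09. The Müller gate's markers include genes of this kind, so the gate partly sets their levels.

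**Figure D4:**
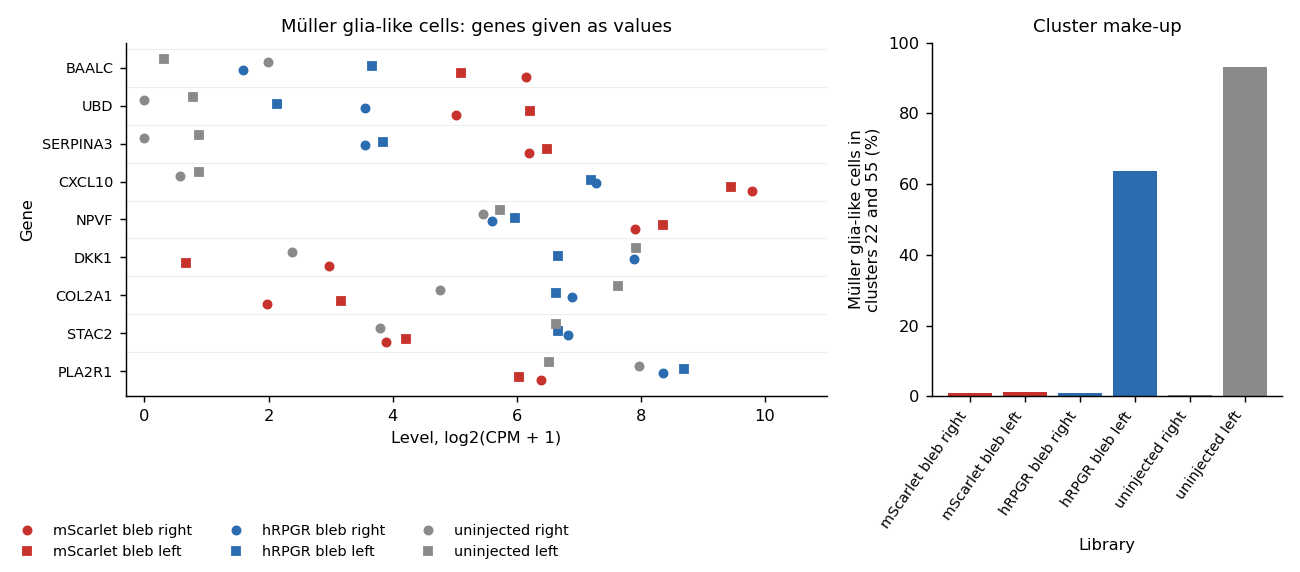
Left, levels of 9 genes of Müller glia-like cells given as values and not as calls, as log2(CPM + 1), in the 6 libraries of NHP2 (circles right eyes, squares left eyes). Right, share (%) of Müller glia-like cells that fell in clusters 22 and 55, which was 63.7% in the left hRPGR bleb, 93.0% in the left uninjected area and at most 1.31% in the other 4 libraries.

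Myeloid-like cells, although more numerous in mScarlet blebs, gave no called gene. Of 9789 genes tested edgeR called 0 (0%), with 765 at an unadjusted p under 0.05, and DESeq2 called 21, while classes from clusters gave 85 calls by edgeR. Without the right mScarlet library 8 genes were called, and without the right hRPGR library 7. CXCL10 was at 316 and 388 CPM in mScarlet blebs, 110.1 and 74.5 CPM in hRPGR blebs and 314 and 252 CPM in uninjected areas (difference 1.91, SE 0.27, adjusted p = 0.16), so it was the hRPGR blebs that were low. GBP7, a guanylate-binding protein, was at 103 and 105 against 34.1 and 22.5 CPM and 21.1 and 16.4 CPM in uninjected areas (difference 1.82, SE 0.24, adjusted p = 0.16). TNFSF10, the death ligand TRAIL, was at 119 and 118 against 52.7 and 44.9 CPM (difference 1.26, SE 0.25, adjusted p = 0.331). Of 58 interferon-response genes 45 were positive, with a median of 0.26 that ranged from 0.04 (without the right mScarlet library) to 0.83 (without the right hRPGR library), and both mScarlet values exceeded both hRPGR values in 14 of the 58, near the 20.7% of all genes. Of 11 MHC class II genes 10 were positive, with a median of 0.34, and both mScarlet values exceeded both hRPGR values in 9 of the 11. CIITA, the transactivator of MHC class II, was at 115 and 135 against 68.2 and 76.9 CPM (difference 0.79, SE 0.22, adjusted p = 0.534).

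The chemokine and cytokine list ran both ways in myeloid cells. Of 22 members tested none was called, 12 were positive, 10 were negative and the median was 0.07. Both mScarlet values exceeded both hRPGR values in 8 and were below them in 5, against 20.7% and 19.5% of all genes. Among the members that the naming rule took, CXCL10 is given above and the others were lower in both mScarlet blebs than in the other 4 libraries, as values and not as calls. TNF was at 89.5 and 84.6 CPM in mScarlet blebs, 176 and 883 CPM in hRPGR blebs and 883 and 981 CPM in uninjected areas (difference -2.59, SE 0.62, adjusted p = 0.414). CCL4L1, a chemokine, was at 442 and 490.3, 1144 and 2927 and 3663 and 3701 CPM, and CXCL8, which draws neutrophils, at 208 and 236, 408 and 1031 and 1082 and 1236 CPM. The left hRPGR bleb was near the uninjected areas in all of these, and the right hRPGR bleb lay between. Genes known to be induced by tissue dissociation summed to 17585, 17804, 18659 and 32875 CPM in the right and left mScarlet and the right and left hRPGR blebs and to 31044 and 36418 CPM in uninjected areas. As with these 3 genes the left hRPGR bleb and the uninjected areas were high, but the right hRPGR bleb was level with the mScarlet blebs. Their part was not tested. Of 12 homeostatic microglia genes 10 were negative and the median was -0.49, but it was 0.0034 (right eye) and -0.97 (left eye), and 5 of the 12 were lower in both eyes, with both mScarlet values below both hRPGR values in 4, where 19.5% of all genes were so. The myeloid gate's markers include genes of this kind, so the gate partly sets their levels. The transcription factor gene MEF2C was at 536 and 496 against 620.3 and 946 CPM (difference -0.60, SE 0.26, adjusted p = 0.639).

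Some genes given as values were higher in myeloid cells of both mScarlet blebs than of both hRPGR blebs. CHIT1, the chitinase of lipid-laden macrophages, was at 45.7 and 141 against 6.20 and 1.18 CPM (difference 4.34, SE 0.72, adjusted p = 0.287), and FN1, fibronectin, at 72.0 and 144 against 23.3 and 3.55 CPM with 0 and 131 CPM in uninjected areas. IL2RA, a chain of the interleukin-2 receptor that activated T cells also hold, was at 11.8 and 91.4 against 2.07 and 0 CPM and the protease gene ADAMDEC1 at 19.9 and 93.7 against 12.4 and 0 CPM. Of the mScarlet pair the left value was the higher for each of these 4 genes. Median depth was 4451.5 and 10762 UMIs a cell in mScarlet blebs and 3414 and 8353 in hRPGR blebs, higher in the left eye of each. T cell markers summed to 378 and 429 CPM in these myeloid cells of the mScarlet blebs and 477 and 360 CPM in those of the hRPGR blebs. Of 19 such markers 17 and 19 had a UMI in mScarlet blebs and 8 and 8 in hRPGR blebs, and CD3D and CD3G were at 0 in both hRPGR blebs. Their part in these values was not tested.

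T cells of the mScarlet blebs, summed as 1 class, held more LAG3 and PRF1 RNA, genes of T cell restraint and of killing. The gate pools CD4 and CD8 T cells, and the part of their mix in these differences was not tested. Of 5629 genes tested 7 were called (0.124%), 6 higher in mScarlet blebs (0.107%) and 1 lower (0.0178%). LAG3, an inhibitory receptor that appears on activated T cells (chr11:6936545-6943431, plus strand), was at 160.0 and 198 CPM in mScarlet blebs, 49.0 and 48.3 CPM in hRPGR blebs and 66.4 and 52.6 CPM in uninjected areas, a rise of 1.88 (SE 0.27, adjusted p = 0.0213). LAG3 UMIs were in 30.3% and 34.4% of the T cells of the mScarlet blebs and 14.1% and 15.6% of those of the hRPGR blebs. PRF1, the pore-forming perforin (chr9:67182693-67188420, plus strand), was at 202 and 263 against 77.4 and 84.5 CPM and 173 and 149 CPM in uninjected areas (difference 1.55, SE 0.25, adjusted p = 0.047). Cells with a PRF1 UMI were 35.9% and 32.8% against 16.2% and 21.9%, and 43.5% and 28.1% in uninjected areas. These shares were not thinned to 1 depth, and the T cells had medians of 4896 and 4379 UMIs in mScarlet blebs and 3688 and 4690 in hRPGR blebs. In free RNA of the 4 bleb libraries LAG3 was at 0.558 to 1.24 CPM and PRF1 at 0 to 0.239 CPM. RGS2, a regulator of G protein signals, was at 152 and 165 against 46.4 and 30.2 CPM (difference 1.95, SE 0.29, adjusted p = 0.0308). The hRPGR blebs gave only 99 and 32 T cell-like cells, with 178940 UMIs in the left, and LAG3 there rested on 19 and 8 UMIs. With the eye as a replicate block RGS2 and PRF1 were no longer called. Without the right hRPGR library 13 genes were called, 2 of them among the 7, and without the left 53, which held all 7. Without the right or the left mScarlet library 47 and 20 were called.

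Related genes stayed below the threshold. GZMA, a granzyme, was at 636 and 477 against 165 and 163 CPM (difference 1.76, SE 0.33, adjusted p = 0.0655), FASLG, the Fas ligand, at 163 and 148 against 46.4 and 30.2 CPM (difference 1.91, SE 0.34, adjusted p = 0.0643) and TNFRSF9, a costimulatory receptor, at 71.6 and 102 against 30.9 and 12.1 CPM (difference 1.81, SE 0.41, adjusted p = 0.0963). In each, both mScarlet values were above both hRPGR values. In uninjected areas GZMA was at 412 and 132 CPM and FASLG at 159 and 52.6 CPM, so for FASLG the right uninjected area was level with the mScarlet blebs. Of 18 cytotoxic granule genes 1 was called higher, where 0.107% of all genes were, 16 were positive, the median was 0.62, and both mScarlet values exceeded both hRPGR values in 11, where 20.1% of all genes did so. Both were below in 2, where 19.1% of all genes were so. Of 18 checkpoint and exhaustion genes 1 was called higher, 16 were positive and the median was 0.40, with both mScarlet values above both hRPGR values in 9 and below them in 1, against the same shares of all genes. FOXP3, the factor of regulatory T cells, was at 38.7 and 65.2 against 116 and 96.5 CPM (difference -1.02, SE 0.32, adjusted p = 0.317). IFNG, interferon-gamma itself and named after its values were seen, was at 72.4 and 48.3 against 36.1 and 36.2 CPM (difference 0.70, SE 0.37, adjusted p = 0.706). Over 52 interferon-response genes the median of the fitted differences was -0.11 with 0 called, while the medians within the eyes were 0.01 on the right and 0.06 on the left, so it had no steady sign.

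Some T cell calls rested on very few cells. CCL20, a chemokine, was at 115 and 64.7 CPM in mScarlet blebs and 0 in the other 4 libraries, at least 15.1-fold higher against a floor of 3 counts over the hRPGR group (adjusted p = 0.0485). Its UMIs lay in 2 cells of each mScarlet bleb, with 101 of 137 and 114 of 134 UMIs in 1 cell. ENSMMUG00000013779, with no symbol, was at 123 and 197 CPM against 0 and 0, at least 30.9-fold higher by the same floor (adjusted p = 0.00573), in 11 and 35 cells. TRBV29-1, a T cell receptor variable segment, was at 102 and 113 CPM in 13 and 17 cells of the mScarlet blebs and had 4 and 3 UMIs in hRPGR blebs (difference 3.07, SE 0.38, adjusted p = 0.0145). CGA, the common subunit of glycoprotein hormones, was the call in the other direction, at 131 and 131 CPM in mScarlet blebs, 779 and 513 CPM in hRPGR blebs and 79.7 and 35.1 CPM in uninjected areas (difference -2.32, SE 0.24, adjusted p = 0.00339). Of its UMIs in hRPGR blebs 113 of 302 and 74 of 85 were in 1 cell. Rod transcripts summed to 737 and 719 CPM in T cells of the mScarlet blebs and 3702 and 1112 CPM in those of the hRPGR blebs. With the free-RNA profile subtracted 4 of the 7 calls remained, without RGS2, PRF1 and CCL20.

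**Figure D5:**
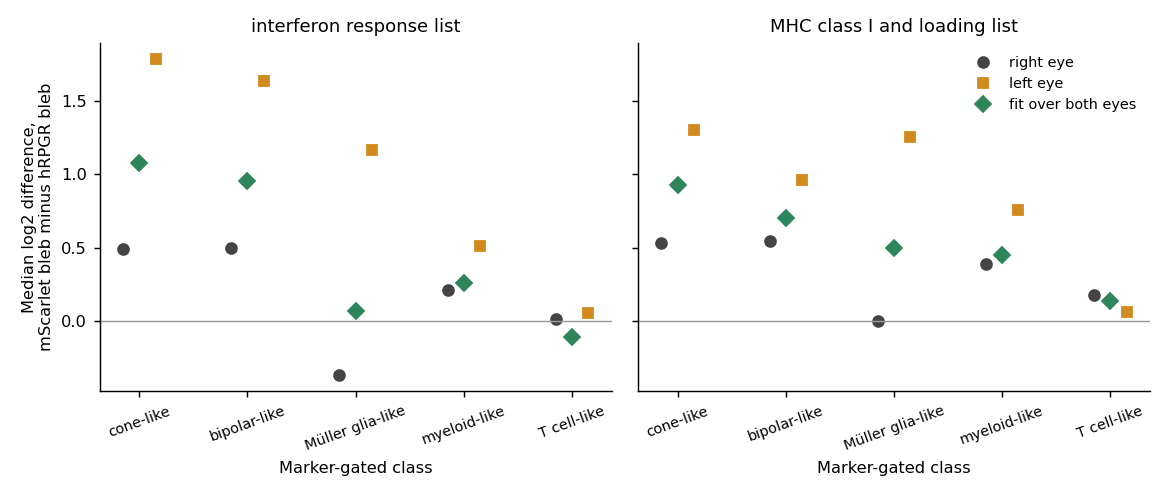
Median log2 difference (mScarlet minus hRPGR, vertical axis) over the tested members of gene lists in the 5 classes, with separate marks for the right and left eye. The interferon-response list has medians of 1.08 in cones and 0.95 in bipolar cells, 0.07 in Müller glia with the eyes on opposite sides of 0 (-0.37 and 1.16), 0.26 in myeloid cells and -0.11 in T cells.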

How the data were processed

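The authors deposited unfiltered UMI counts per feature and barcode, made with Cell Ranger against Mmul_10 with added transgene features. Retina was lifted off the pigment epithelium in punches and digested with papain. The authors' removal of free RNA, batch integration and annotation were not repeated, so classes were rebuilt here and can differ from the study's. Of 26533 features, 16681 were named by the files, 521 by a supplied gene table and 9331 by identifier only, and 3 transgene features were kept out of library sizes and tests.

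Barcodes with at least 1500 UMIs and 300 genes were kept. The barcodes with the highest Scrublet scores, at a rate of 0.8% per 1000 cells, were removed as likely doublets (3843 of 43583 in the blebs). A cell joined a class when its marker UMIs per 10000 reached 60 (cone), 40 (bipolar), 150 (Müller glia), 80 (myeloid) or 30 (T cell), with at least 4 markers detected. Of the bleb cells 24400 passed the rod gate, 4909 passed none and 298 passed several, and these entered no test. Clusters, used as an alternative, came from 3000 variable genes, 40 components, 15 neighbours and leiden resolution 2 in scanpy 1.11.5. Sums per library and class ran from 178940 to 7060840 UMIs in the blebs and from 81592 to 8455210 UMIs in the uninjected areas.

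Sums of the 6 NHP2 libraries were fitted with edgeR 4.0.16 (filterByExpr, TMM, quasi-likelihood test) in R 4.3.3, and DESeq2 1.42.0 was an alternative. The code was tested on simulated data. Shares were compared by exact permutation. Up to 10 called genes in each direction with the lowest p, and the 4 members of each list with the lowest p, were named. Where under 5 were called in a direction, up to 5 genes with the largest differences, no overlap and a mean of at least 50 CPM were added as values. Other named genes were chosen after their values were seen. A few genes that the rule names are not reported here. The members and lists were chosen with earlier results of these data known. Replicate numbers stand for the eye of 1 animal, which pairs the libraries by design. The left-minus-right deviations of the mScarlet and hRPGR blebs correlated at 0.091 (cone, 11337 genes), -0.0092 (bipolar), -0.071 (Müller glia), -0.11 (myeloid) and 0.072 (T cell) across genes, which are not independent replicates.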

Additional observations from a re-analysis of the deposited data

Results flagged for a closer look

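The difference in the share of cone-like cells was opposite in the eyes, 1.09 percentage points in the right and -0.742 in the left, and the difference between the eyes was not tested. The same was so for Müller glia-like cells, at 0.494 and -1.89 percentage points. In Müller glia the median of the interferon-response list was -0.37 (right eye) and 1.16 (left eye), which was not tested either.

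A transgene was counted where the labels name another vector or none. Cones of the right mScarlet bleb held 176 coRPGR UMIs and cones of the right uninjected area 57, in 26 of 348 cells (7.47%), while the cones of the left mScarlet bleb and the left uninjected area held 0. Rods of the right uninjected area held 7628, in 1341 of 6901 cells (19.4%, 188 CPM), and those of the left 0. Rods of the right mScarlet bleb held 825, in 238 of 5161 cells (4.61%), and those of the left 15. The right uninjected area was therefore not a background free of coRPGR. In free RNA of the right mScarlet bleb and the right uninjected area coRPGR was at 27.0 and 299.8 CPM, against 29.9 and 9.43 CPM in their cones. Its source was not tested.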

How the results depend on the processing

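The 5 counts of called genes were recomputed under every alternative, and 5 medians of the interferon-response list, 5 shares and 35 called genes by name under those that bear on each. Without a filter on low counts edgeR called 350 genes in cones, 307 in bipolar cells, 1 in Müller glia, 328 in myeloid cells and 186 in T cells. DESeq2 called 49 in cones, 22 in bipolar cells, 157 in Müller glia and 21 in myeloid cells. With the 4 bleb libraries alone 27 were called in bipolar cells, 40 in Müller glia and 4 in T cells. The eye as a replicate block, which pairs the libraries, gave 12 in cones, 5 in bipolar cells and 1 in Müller glia and moved neither other count by over 1.5 times. Classes from clusters gave 13, 19, 3, 85 and 4 calls in cones, bipolar cells, Müller glia, myeloid cells and T cells. Keeping likely doublets gave 1 in bipolar cells, subtracting free RNA 4 in T cells and a minimum of 3000 UMIs 16 in T cells. Leaving out 1 library gave 3 to 73 calls in cones, 1 to 30 in bipolar cells, 0 to 42 in Müller glia, 0 to 8 in myeloid cells and 8 to 53 in T cells, where a lone sample is assumed to vary like the others. The interferon median ran from 0.64 to 2.33 in cones, 0.23 to 1.80 in bipolar cells, -0.41 to 1.34 in Müller glia, 0.038 to 0.83 in myeloid cells and -0.42 to 0.41 in T cells when 1 library was left out. In Müller glia it reversed without the left hRPGR library (-0.41), without the right mScarlet library (-0.07) and with free RNA subtracted (-0.0146). In T cells it reversed without the left mScarlet library (0.20) and without the right hRPGR library (0.41), was -0.0076 with no filter, -0.0372 with the replicate block, -0.0371 with clusters, and -0.19 with free RNA subtracted, and in myeloid cells it was 0.48 with clusters. The difference in cone share ran from -0.892 (without the right mScarlet library) to 1.24 and that of Müller glia from -2.58 to 1.18 (without the left hRPGR library). That of bipolar cells, 2.92 percentage points with all libraries, ran from 0.472 to 5.37. Under DESeq2, other size factors, the block, clusters, free RNA subtracted, the bleb libraries alone and each left-out library, 319 values of the named called genes kept their direction and call, 101 kept the direction but not the call and none reversed. The block took the call from 13 of the 35, DESeq2 from 1, clusters from 9 and free RNA from 3, and it was lost for 24 without the right mScarlet library and 26 without the left. The causes were not tested. The T cell sums rested on 32 cells and 178940 UMIs in the left hRPGR bleb and 23 cells and 81592 UMIs in the right uninjected area.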
